A study of Rattus norvegicus with 4 samples.

Results

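In a rat macrophage line, 7 genes best known from other blood and vessel cells gave signal. They were Vwf, Cdh5 and Pecam1 of endothelium, Pax5 and Fcrla of B cells, Cd4 of T cells and Camp of neutrophils, 7 of 16575 named genes measured. They are markers of these other cell types and were chosen by Agilent's mark for a spot well above background, which a probe of each carried on all 4 arrays. Their detection is therefore described here and supports nothing. The label calls them atypical of macrophages, and at least 2 of the 7 fit it loosely, since Pecam1 and Cd4 are also known from rat macrophages.

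The cells were NR8383, a line of alveolar macrophages established from lung lavage of a healthy animal. Cultures after 20 passages received TiO2 particles of type NM105 (P25, a mixture of anatase and rutile) at 3 cm2 of particle surface per cm2 of culture for 4 h. All 4 cultures, replicates 1 to 4, form 1 exposed group, which the series text calls biological replicates, and each was measured on 1 array. No value below is a response to the particles, because untreated cultures were not analysed here. The RNA is a bulk extract, so a few cells of another type and a little RNA in every cell cannot be told apart.

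Lineage genes of this kind are usually held on by transcription factors of one cell type and kept silent in the rest. Von Willebrand factor is a large secreted protein that tethers platelets, and endothelial cells and megakaryocytes store it in granules. VE-cadherin (Cdh5) and PECAM1 hold endothelial cells together at their junctions, PAX5 commits lymphoid progenitors to the B cell fate, and cathelicidin (Camp) is an antimicrobial peptide of neutrophil granules.

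The cells carried the marks of macrophages. Among 29 macrophage markers measured, every array marked 19, with Cd68, Csf1r, Itgam and Cd14 among them, and no array marked 9, with Adgre1 and Cd74 among these. For comparison, 35.2% of all named genes carried the mark on all 4 arrays. No marker of epithelium (11 measured, Epcam and Cdh1 among them), fibroblasts (10, with Col1a2 and Col3a1) or mast cells (9, with Kit and Cpa3) was detected on all 4. The arrays differed in brightness: the 75th percentile of signal over detected probes, used as each array's reference, ran from 585 to 1431 intensity units and was highest on replicate 1. The 99th percentile of negative control signal, called the control percentile below, ran from 5.07 to 5.96 units. A level below is the log2 signal relative to that reference, as mean ± SD over the 4 arrays, and levels of different probes are not comparable. The median SD over the 5828 genes detected on all 4 arrays was 0.23.

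The 7 genes had 9 named probes, of which 7 were marked on every array and the other 2 on none. Only Vwf and Cd4 had a second named probe, and in each it gave no such signal. This pattern was common on the arrays. Of 1638 genes with several named probes and at least 1 of them detected on all 4 arrays, 534 (32.6%) had another probe detected on no array. The other 5 genes rest on 1 named probe each. The deposited files hold no probe sequences, so where a probe lies on its transcript is not given.

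**Figure D1:**
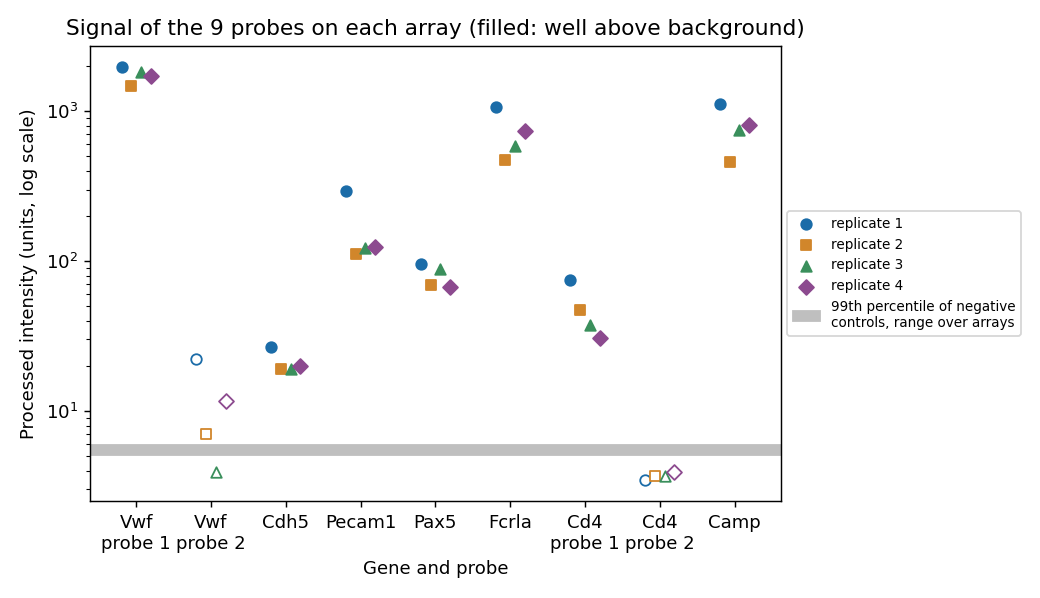
Processed intensity (log axis) of the 9 probes on each of the 4 arrays, with the range of the 99th percentile of negative controls as a grey band. Filled symbols stand for probes that every array marked; the second probe of Vwf and that of Cd4 are open, and heights of different probes are not comparable.

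Vwf gave strong signal at its first probe and little at the other. The first (A_43_P21694) read 1984, 1470, 1825 and 1718 intensity units on replicates 1 to 4, at least 268 times the control percentile on each array. The second (A_64_P114913), assigned in the files to the same RefSeq transcript, read 22.1, 7.05, 3.93 and 11.7 units. No array marked it well above background, although Agilent's looser mark of a positive and significant signal was set on 3 arrays. The first probe was therefore far above the controls in every culture. The second ran from 0.77 times the control percentile on replicate 3 to 3.93 times on replicate 1. Among 2286 genes with 2 probes of 1 transcript, 274 (12.0%) showed this split and 544 (23.8%) were detected by both probes on all arrays. A further 959 (42.0%) were detected by neither probe on any array, so these shares are not taken over detected genes.

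The level of Vwf was 1.02 ± 0.39 (SD, n = 4), with 0.47 on replicate 1 against 1.33, 1.25 and 1.05 on replicates 2 to 4. Replicate 1 was the lowest, and without it the SD was 0.14. Of 20 measured genes for the storage, release and partners of von Willebrand factor, 7 were marked on every array, 5 on 1 to 3 arrays and 8 on none. The 35% on every array was near the 35.2% of all named genes. The detected ones included Cd63, a membrane protein of lysosomes and of Weibel-Palade bodies, the endothelial granules that hold the factor, Rab3d and Unc13d of regulated secretion, and the vesicle fusion gene Vamp3. Selp and Angpt2, which encode cargo of Weibel-Palade bodies, were marked on no array. Of 12 other measured markers of megakaryocytes and platelets, the cells that also make von Willebrand factor, Gp9 alone was detected on all 4 arrays, 3 on fewer, and 8, with Gp1ba and Gp1bb, on none.

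Cdh5 sat just inside the detection mark. Its only named probe read 26.6, 18.9, 19.2 and 19.8 units, 3.32 to 4.74 times the control percentile of the array. The dimmest gene spots marked well above background on these arrays read 14.5 to 17.7 units. Agilent's own error estimate for the Cdh5 spot was 15.2% of the signal on replicate 1 and 19.4% to 21.0% on the others, against 10.0% for the first Vwf probe. Its level was -5.35 ± 0.33 (SD, n = 4). Replicate 2 was highest at -4.95 and replicate 1 lowest at -5.75.

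Just outside the mark, with detection on 3 arrays each, lay 2 endothelial genes chosen after their values were seen. Eng, a co-receptor for transforming growth factor beta, read 56.8, 19.8, 12.5 and 20.4 units and missed on replicate 3. Icam2, an adhesion molecule, read 66.8, 31.6, 22.5 and 16.5 units and missed on replicate 4. The step from Cdh5 to these genes is thus 1 array that missed the mark.

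Pecam1 encodes an adhesion receptor of endothelium, platelets and leukocytes, and its probe was clearly above the controls in all cultures. It read 293, 111, 122 and 124 intensity units, 20.3 to 52.0 times the control percentile. Replicate 1 was the brightest before scaling. The level was -2.52 ± 0.21 (SD, n = 4), from -2.74 on replicate 4 to -2.29 on replicate 1, and replicate 2 became the highest under each of the 4 other scalings or corrections.

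The rest of the endothelial programme was sparse. Of 23 other measured endothelial markers, 1 was detected on all 4 arrays, 3 on fewer and 19 on none, against 35.2% of all named genes detected on all 4. The detected one was Fli1, an ETS family transcription factor also active in blood cells, and its 3 probes were detected on 4, 3 and 0 arrays. Kdr and Tek, the receptors for VEGF and angiopoietins, were on no array. Of 15 measured junction partners, every array marked 5 (33.3%, against 35.2% of all named genes), no array marked 9, and 1 lay between. The detected ones included Ctnnb1 and Ctnna1, the catenins that link cadherins to actin, and Ptpn6 and Ptpn11, phosphatases that dock on PECAM1. The junction gene Jup and the PECAM1 ligand Cd38 were on no array. Of 18 other measured cadherins, Cdh17 alone was detected on all 4, and 16, with Cdh1 and Cdh2, were on none.

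**Figure D2:**
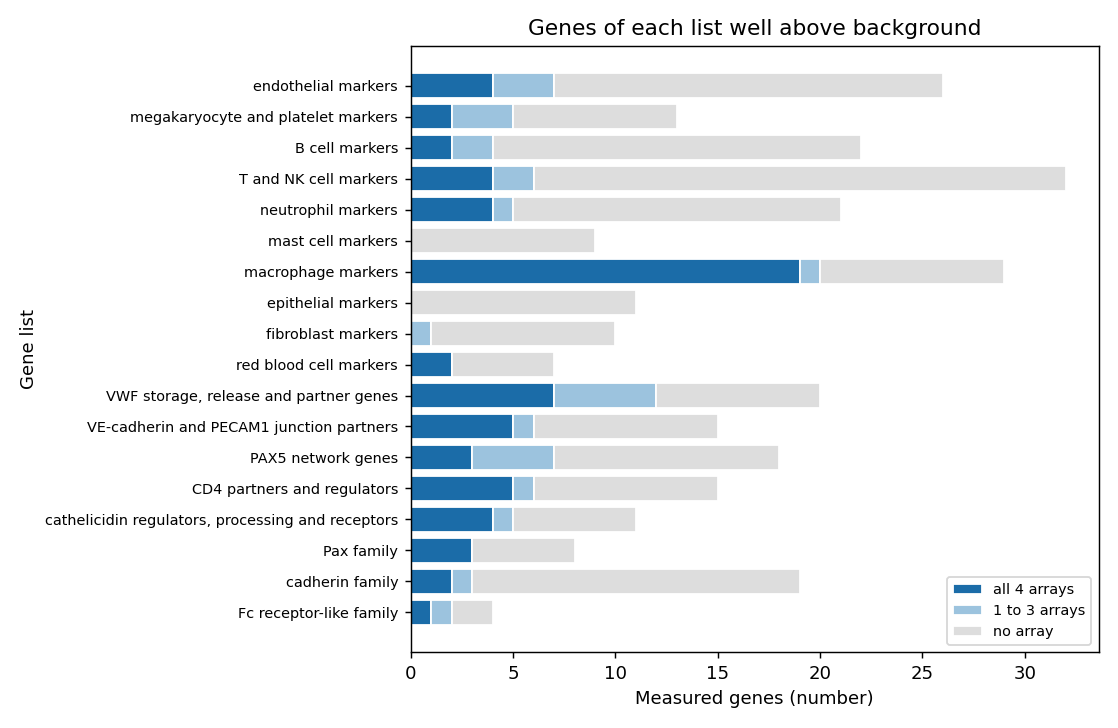
Number of measured genes of each list well above background on all 4 arrays (dark), on 1 to 3 arrays (light) or on none (grey). The bar of macrophage markers holds 19 of 29 genes detected on all 4 arrays, and that of endothelial markers 4 of 26.

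Pax5 gave a modest signal in all cultures. Its only named probe read 95.5, 69.8, 88.8 and 66.8 intensity units, 11.2 to 17.5 times the control percentile. The level was -3.43 ± 0.41 (SD, n = 4). Replicates 2 and 3 were higher, at -3.07 and -3.11, than replicates 1 and 4, at -3.91 and -3.64. The SD of 0.41 was above the 75th percentile of 0.32 over detected genes.

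PAX5 works in a network with other B cell regulators. Of 18 measured network genes, every array marked 3 (16.7%, against 35.2% of all named genes), 4 were marked on fewer and 11 on none. The 3 were Tcf3, Bcl11a and Id2, the last an inhibitor of E proteins. Ikzf3 and Spib were on no array. Within the Pax family of paired-domain factors, 2 of 7 other measured members were also detected on all 4 arrays and 5, with Pax2 and Pax4, on none. Of all named genes, 35.2% were detected on all 4. Pax3, a regulator of neural crest and muscle progenitors, read 4628, 1811, 2524 and 2616 units, at a level of 1.67 ± 0.04 (SD, n = 4). Pax8, which belongs with Pax2 and Pax5 to 1 subfamily and acts in thyroid and kidney, read 443, 116, 144 and 171 units, at -2.18 ± 0.33 (SD, n = 4). Pax3, Pax5 and Pax8 each rest on 1 named probe at 1 spot.

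Fcrla encodes an intracellular protein related to Fc receptors that B cells make, and it alone of the 7 had a probe printed at 10 spots. These spots are copies of 1 probe, so they show spot noise and not whether the probe reads Fcrla. Its mean signal read 1061, 473, 589 and 738 intensity units in replicate order, and all 10 spots were well above background on every array. Within an array the spots ranged from 988 to 1168 units on replicate 1 and from 432 to 510 on replicate 2. Their coefficient of variation was 5.56% and 5.35% on replicates 1 and 2, and 3.77% and 3.71% on replicates 3 and 4. After scaling, the level was -0.32 ± 0.11 (SD, n = 4), from -0.43 on replicate 1 to -0.17 on replicate 4. The SD between arrays was below the median of 0.23 over detected genes, while the SD between spots of 1 array was 0.05 to 0.08 on the log2 scale.

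No other measured gene of the B cell list was marked on all 4 arrays. Of 20 other measured B cell markers, 0 were marked on every array, against 35.2% of all named genes. On fewer arrays 2 were marked, and 18, with Cd79b among these, on none. The 2 were Ebf1 and Cd37, each marked on 1 array and above the control percentile on all 4. Of 3 other measured genes of the Fc receptor-like family, Fcrlb, the closest relative by name, was detected on 1 array and the other 2, Fcrl2 and Fcrl6, on none. Fcrlb, chosen here after its values were seen, read 29.4, 5.02, 14.3 and 14.6 units at its brighter probe.

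Of the 7 genes, 2 had an entry in the RefSeq promoter table, Fcrla and Camp, and their start regions are shown for that reason. Each window runs from 250 bases before to 50 after the annotated start, 5′ to 3′ on the gene's strand, in GRCr8. Capitals mark AGGAAG, a core that PU.1 and other ETS factors bind, and TTGCATCA, the letters of an element bound by C/EBP and ATF dimers, on either strand.
Fcrla, chr13:85702777-85703076, minus strand: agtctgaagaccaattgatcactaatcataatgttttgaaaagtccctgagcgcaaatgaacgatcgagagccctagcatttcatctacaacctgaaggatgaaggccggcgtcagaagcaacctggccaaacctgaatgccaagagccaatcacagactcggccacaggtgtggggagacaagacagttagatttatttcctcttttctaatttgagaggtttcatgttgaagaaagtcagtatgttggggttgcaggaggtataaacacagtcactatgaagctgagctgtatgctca
Camp, chr8:118721949-118722248, minus strand: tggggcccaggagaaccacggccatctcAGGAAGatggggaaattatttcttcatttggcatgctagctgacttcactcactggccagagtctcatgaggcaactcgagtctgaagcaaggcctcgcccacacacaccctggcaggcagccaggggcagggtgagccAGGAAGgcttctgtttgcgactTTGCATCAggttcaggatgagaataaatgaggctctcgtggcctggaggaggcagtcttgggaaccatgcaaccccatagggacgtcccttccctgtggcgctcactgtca

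The Camp window held AGGAAG at 2 places, starting at positions -222 and -83 from the annotated start, and TTGCATCA at position -61, and these matches did not overlap. Of 33469 promoter windows of the same length, 34.5% held AGGAAG and 0.795% held TTGCATCA on either strand. TTGCATCA was searched for after the sequence had been read. The Fcrla window held neither, and it held TATAAA at position 13 after the start, letters found in 14.2% of windows, and CANNTG, the E-box that E proteins bind, at 3 places, against 72.1% of windows with at least 1. The Camp window held CANNTG at 1 place, at position -198. A match is a run of letters and not a measured site.

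Camp gave firm signal in all 4 cultures. Its only named probe read 1110, 459, 746 and 814 intensity units, at least 83.9 times the control percentile on each array. The level was -0.20 ± 0.19 (SD, n = 4). Replicates 1 and 2 were at -0.37 and -0.35 and replicates 3 and 4 at -0.04 and -0.03.

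Of 11 measured genes for the regulation, processing and reception of Camp, every array marked 4, no array marked 6, and 1 lay between. The 36.4% on every array was near the 35.2% of all named genes. The 4 were Cebpe, Cebpb, Spi1 (which encodes PU.1) and Hif1a, and Cebpa and Vdr were on no array. Cebpe, the C/EBP factor of late granulocyte maturation, read 294, 186, 200 and 219 units, at -1.95 ± 0.26 (SD, n = 4). Of 20 other measured neutrophil markers, every array marked 3, against 35.2% of all named genes, no array marked 16, and 1 lay between. The 3 were Cebpe itself, Lcn2, which encodes an iron-siderophore binding protein, and Mmp9, a gelatinase, and macrophages are known to make Lcn2 and Mmp9 as well. S100a9 and Elane, which encode a calcium-binding protein and the serine protease of neutrophil granules, were on no array.

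Cd4 encodes the T cell co-receptor for MHC class II, which rat macrophages also carry. Its first probe (A_44_P1105160), assigned to a predicted transcript, read 74.9, 46.9, 37.7 and 30.8 intensity units, 5.17 to 13.3 times the control percentile. The second (A_64_P039482), assigned to the curated transcript, read 3.44, 3.66, 3.68 and 3.92 units, below the control percentile on all 4 arrays. The detection of Cd4 therefore rests on the probe of the predicted transcript alone. Of 608 genes with 1 curated and 1 predicted probe, 49 (8.06%) were detected by the predicted one on all arrays and by the curated one on none, and 60 (9.87%) the other way. Both probes were detected on all arrays for 78 (12.8%) and neither on any array for 273 (44.9%), so these shares are not taken over detected genes.

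The level of Cd4 at the first probe was -4.25 ± 0.46 (SD, n = 4), with -3.64 on replicate 2, -4.26 and -4.35 on replicates 1 and 3, and -4.75 on replicate 4. Replicate 2 was the highest, and without it the SD was 0.26. Of 15 measured partners and regulators of CD4, every array marked 5 (33.3%, against 35.2% of all named genes), no array marked 9, and 1 lay between. RT1-DMa and RT1-DMb, which load peptides onto MHC class II, the class II chain gene RT1-Db1 and the transcription factor gene Runx1 were among the 5. RT1-Db1 was dim, between 31.7 and 43.5 units. The other class II chain genes of the list, RT1-Da, RT1-Ba and RT1-Bb, the class II invariant chain gene Cd74, the ligand gene Il16 and the class II activator gene Ciita were on no array.

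Of 31 other measured genes of the T and NK cell list, every array marked 3, against 35.2% of all named genes. On fewer arrays 2 were marked, and 26, with Cd3e and Cd3d of the T cell receptor complex, on none. Cd28, the T cell co-stimulatory receptor, split like Cd4: its probe for a predicted transcript read 704, 455, 547 and 468 units and that for the curated one 3.87, 4.08, 4.25 and 4.50. Cd6, a T cell adhesion receptor, also split, with 54.1, 24.0, 40.9 and 40.1 units at its brighter probe and detection on no array at the other. Tbx21, the T-bet factor of type 1 lymphocytes, read 13547, 8030, 10158 and 9687 units at its only named probe. Of the 4 genes of this list detected on all arrays, Tbx21 was the one without a probe that stayed at background.

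Before scaling, all 7 genes were brightest on replicate 1, the array with the highest reference. After scaling, 5 of the 7 were lowest on replicate 1, against 25.0% of detected genes. On this scale the control percentile was lowest on replicate 1 too, at -7.99, against -6.74, -7.24 and -7.12 on replicates 2 to 4. How far this floor sets the order of the dim genes was not tested. Vwf, Cdh5 and Pax5 were highest on replicate 2 and lowest on replicate 1 under the reported scaling and under all 4 other scalings or corrections. Fcrla and Camp were highest on replicate 4 and lowest on replicate 1 under the same settings. Cd4 was highest on replicate 2 in each, and its lowest array was replicate 4 except under normexp correction, where it was replicate 1. All these settings start from the same spots, and a change of reference only shifts each array by a constant. Their agreement is therefore not independent support. The difference between the highest and lowest array ran from 0.26 for Fcrla to 1.11 for Cd4 on the log2 scale under the reported scaling. With 1 group these differences take culture, extraction, labelling and hybridisation together.

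**Figure D3:**
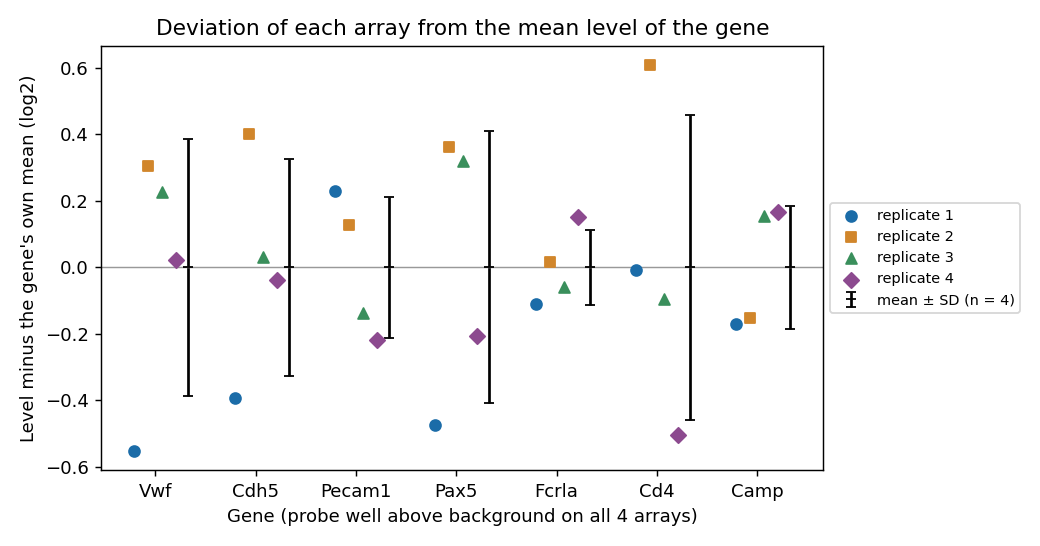
Deviation of each array's level from the gene's own mean (log2) for the 7 detected probes, with bars for the SD (n = 4). Replicate 1 is the lowest point for 5 genes.

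The genes whose pattern over the 4 arrays lay nearest were found by the root mean square difference of deviations from each gene's mean, over 5828 genes. Camk1g was nearest to Vwf (0.025), Ndufs7 and Park7 to Cdh5 (0.024 and 0.025), and Rnf215 and Fam234a to Pecam1 (0.015 and 0.019). Rasal1 and Krtap10-10l2 were nearest to Pax5 (0.021 and 0.048), Dcaf11 and S100a4 to Fcrla (0.0094 and 0.011), Tmem140 and Iffo1 to Cd4 (0.023 and 0.060), and Vps29 and Mfsd9 to Camp (0.028 and 0.029). From 11 genes for Cd4 to 376 for Fcrla lay within 0.1.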

How the data were processed

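RNA of 4 exposed cultures was measured on 1-colour Agilent arrays. The deposited files hold spot intensity made with Agilent Feature Extraction 11.0.1.1, per the submitters' processing notes; per the file headers, that software subtracted background and removed spatial trends array by array, with no normalization across arrays. Control spots and outlier spots were left out, and each probe's spots were averaged as log2 values. Levels are relative to each array's 75th percentile over probes detected on all 4 arrays, because 22.9% of 45598 probes were. A probe was detected where over 50% of its spots were marked well above background, and a gene where any probe was. Probes were named by RefSeq accession through a GRCr8 gene table: 21102 matched 1 symbol and 24496 stayed unnamed, 6958 probes with Ensembl transcript names included, so further probes of these genes may exist. A gene is given by its brightest probe. No test was run, since the labels analysed hold 1 group. Genes and lists were chosen with earlier results of these data known. Named were the 7 genes, the first 4 list genes detected on all arrays and the first 2 on none, and the 2 nearest genes. Some genes that this rule picks are left out of the text, and others, such as Ebf1, Cd37, RT1-Da, RT1-Ba and RT1-Bb, were named outside it. Alternatives were normexp correction (limma 3.58.1, R 4.3.3, offset 50), other scalings, probe and detection rules, and each replicate left out. Python 3.11.15, numpy 2.4.6 and pandas 2.3.3 were used, and the steps were checked on simulated data. The number of arrays, 4, limits the precision.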

Additional observations from a re-analysis of the deposited data

How the results depend on the processing

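The 7 genes were detected under each alternative but 1: with every probe required, the count was 5, without Vwf and Cd4. The other outcomes were fixed by the choice of the genes and show nothing further. Every spot of the 7 probes was marked on all 4 arrays, so no spot rule and no left-out replicate could lose a gene. The dimmest marked spots, at 14.5 to 17.7 units, also lay above the control percentile of 5.07 to 5.96 units. The reference of the scaling sets the zero of a level. With the 75th percentile over all gene probes as reference, the levels were 6.20 for Vwf, -0.18 for Cdh5, 2.65 for Pecam1, 1.74 for Pax5, 4.85 for Fcrla, 0.92 for Cd4 and 4.97 for Camp. With the median over detected probes they were 3.07, -3.31, -0.47, -1.38, 1.72, -2.20 and 1.85 in the same order. After normexp correction the dimmer genes rose on this scale, Cdh5 to -3.35, Pecam1 to -2.20, Pax5 to -2.67 and Cd4 to -2.97. The mean over both probes put Vwf at -2.76 and Cd4 at -6.06. With each replicate left out, Fcrla ran from -0.35 to -0.11 and Camp from -0.23 to 0.074. Quantile normalization and outlier spots kept moved no level by more than its SD. The SD of Pecam1 was 0.11 after normexp correction, and that of Fcrla was 0.06 without replicate 4 and 0.18 with the 75th percentile over all gene probes as the reference.

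Of 144 recounts of lists, 135 lay within 1.5 times the reported count. The other 9 all came from the negative control rule or the rule that every probe be detected, both given below. The spot rules could change only probes with several spots, and several lists hold chosen genes. The 135 is therefore no measure of stability. With signal above the 99th percentile of negative controls as the mark, 44.4% of named genes passed on all arrays. Counted with the chosen genes, endothelial markers then numbered 7 (4 as reported), T and NK cell markers 7 (4), PAX5 network genes 6 (3), B cell markers 4 (2), megakaryocyte markers 4 (2) and mast cell markers 1 (0). Without the chosen genes, the endothelial count went from 1 to 4, T and NK from 3 to 6, B cell from 0 to 2 and megakaryocyte from 1 to 3. With every probe of a gene required, 29.9% of named genes passed, and endothelial markers numbered 2, T and NK cell markers 1 and megakaryocyte markers 1, counted with the chosen genes. Both endothelial genes were chosen ones, and the others were not. No paired analysis was possible because the samples form 1 group.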

Other observations

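The 3 nearest protein-coding genes on each side of every gene were looked up in the GRCr8 table after the values were seen, for names only. Of 42 such neighbours, 31 were measured, of which every array marked 16 and no array marked 10, beside 35.2% of all named genes on every array. Fcrla lies beside the Fc gamma receptor genes Fcgr2b, Fcgr3a and Fcgr2a, the receptors with which macrophages bind antibody, and all 3 were detected on all 4 arrays, at -0.49 ± 0.33, 0.98 ± 0.08 and 3.75 ± 0.10 (SD, n = 4). Fcrlb, on its other side, was detected on 1 array. Vwf lies beside Cd9, a tetraspanin gene, and Tnfrsf1a, a receptor for TNF, which were detected on all 4 arrays, at -0.64 ± 0.30 and -0.08 ± 0.21. Cd4 lies beside Lag3, a related receptor gene that was on no array, and Ptms and Mlf2, which were on all 4. Of the 5 measured neighbours of Camp, 4 were on all arrays, and of the 4 measured neighbours of Pax5, Zbtb5 alone was.

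The red blood cell list held 2 of 7 measured genes on all 4 arrays (28.6%, against 35.2% of all named genes). They were the globin gene Hba-a1 and the erythropoietin receptor gene Epor, while Hbb and Hba-a2 were on none.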
